A study of Mus musculus with 28 samples.

Results

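Satellite cells, the stem cells of adult skeletal muscle, rest in a quiescent state and enter an activated state in which they divide. A set of 3280 mouse regions was called accessible in both of these states and in no starting fibroblast library, and its opening was followed in fibroblasts taken toward muscle progenitors. The assay was ATAC-seq, in which a transposase inserts sequencing adapters where chromatin is accessible. Peaks that overlapped by at least 1 bp in 27 of the 28 deposited lists gave 255567 merged regions, each called by the libraries with a peak inside it. The 3280 regions had a peak in both quiescent and both activated satellite cell libraries and in neither day 0 fibroblast library, and are named satellite-shared regions below. Calls in those 6 libraries chose the regions and are not results. Calls in the other libraries were no criterion, but their peaks took part in the merging that set the bounds of regions. The same rule found 3296 regions where only the satellite cell and day 0 lists were merged.

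The series held 14 groups of 2 libraries. The MEF14 fibroblasts came from E13.5 embryos. All of them, day 0 and FRG cells included, carried Rosa-rtTA together with Col1a1-tetO-MyoD and with the reporter Pax7-nGFP, so that doxycycline turns on MyoD and the Pax7 promoter drives a nuclear GFP. Followed here were unsorted Dox+FRG cells at days 2, 4, 6 and 8, their GFP-labelled counterparts at days 8 and 10, Dox cells at days 4 and 8 and FRG cells at day 8. The Dox+FRG medium held doxycycline at 2 µg/ml, forskolin at 5 µM, RepSox at 5 µM, CHIR99021 at 3 µM and basic FGF at 10 ng/ml. Dox cells were read as those kept in the described myotube medium, with the doxycycline and the basic FGF alone. The letters FRG were taken to stand for the small molecules, and no separate medium is described for the FRG group. Day 6 MEF10 cells, of a genotype not described, made up the MyoD+FRG and MN+FRG groups, where MN is not defined. Satellite cells came from adult Pax7-nGFP mice of 10 to 12 weeks, and the labels do not say how the activated cells were activated. Here unsorted means only that a list has no GFP label. The origin of the 2 libraries of a group, from separate cultures or animals or not, is not stated. A p-value therefore covers only the spread between libraries, which may be technical. Where a test pools 2 days on a side, that spread also holds the difference between the days.

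As background, MyoD is a basic helix-loop-helix transcription factor that binds E-box sequences, can bind chromatin that is closed, and can turn fibroblasts into muscle cells. Pax7 marks satellite cells and is needed to keep them. Forskolin activates adenylyl cyclase and raises cyclic AMP, RepSox inhibits the type I TGF-beta receptor, and CHIR99021 inhibits GSK3 and so raises Wnt/beta-catenin signalling. Regions open in a differentiated or stem cell type and closed in fibroblasts are often enhancers, which can lie away from gene starts and act on genes at a distance.

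Positions are those of the mouse build mm9. No mm9 annotation or genome was used here, so regions are given by position without gene names or sequence, and the satellite cell labels were not checked against marker genes. Lists held 37301 to 134997 peaks, the longest being the 2 FRG lists, and carried no height or read count, so depth is unknown. Because list lengths differed between groups, each share of satellite-shared regions is set beside that of other regions in the same library. Comparison regions were the 173944 other regions without a day 0 call (the remaining regions), 7771 activated-only regions called in both activated and no quiescent libraries, and 5772 quiescent-only regions called in both quiescent and no activated libraries, also without a day 0 call. The activated-only and quiescent-only regions are part of the remaining regions. By the rule a satellite-shared region was called in 4 satellite cell libraries, whereas a peak in any list was enough for a remaining region. The remaining regions, and all regions without a day 0 call, are thus not matched to the satellite-shared ones in this. Its part in the differences from them was not tested. A region is called open in a group where both of its libraries called it.

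Most satellite-shared regions were open in the converted cells, and few were called in no library outside the satellite cells. Of the 18 followed libraries, a median of 14 called a satellite-shared region (quartiles 8 and 16), against 9 for an activated-only region (quartiles 4 and 13), 2 for a quiescent-only region (quartiles 0 and 6) and 2 for a remaining region (quartiles 1 and 4). All 18 libraries called 329 satellite-shared regions, or 10.0%, whereas 0.448% of all 177224 regions without a day 0 call were called in all 18. No followed library called 119 satellite-shared regions, or 3.63%, against 11.1% of the remaining regions. For 107 of these 119 no library outside the satellite cells had a call, against 6.18% of the regions without a day 0 call.

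**Figure D1:**
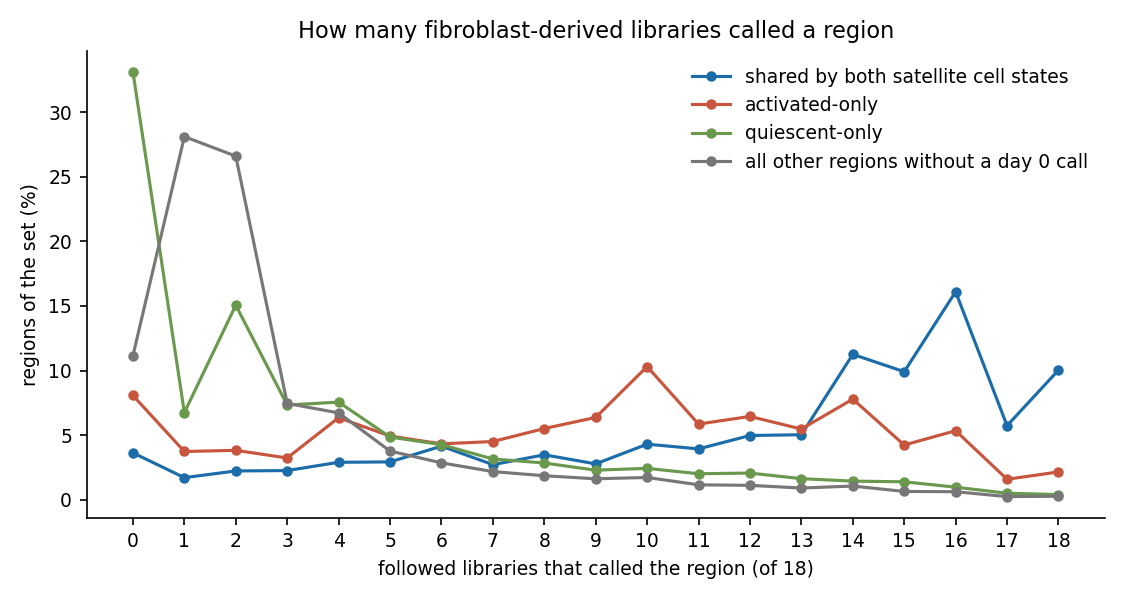
Share of regions in percent against the number of followed libraries, of 18, that called them, for the satellite-shared, activated-only, quiescent-only and remaining regions. Satellite-shared regions gather at high numbers with a median of 14, while the remaining and quiescent-only regions gather at low numbers with a median of 2.

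Just outside the rule, the 2722 regions that missed 1 of the 4 satellite cell libraries had a median of 11 followed libraries, and the 945 regions called in all 4 satellite cell libraries and in 1 day 0 library had a median of 15. Day 10 GFP libraries called 66.8% and 68.6% of the first kind and 82.0% and 82.9% of the second, beside 81.7% and 83.2% of the satellite-shared regions. FRG libraries called 36.8% and 36.3% of the first kind and 83.2% and 83.3% of the second, beside 37.2% and 36.1% of the satellite-shared regions.

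Over the Dox+FRG days the share of satellite-shared regions called was lowest at day 2 and highest at days 6 and 8. The day 2 libraries called 46.9% and 34.6% of them, those of day 4 70.4% and 58.4%, those of day 6 70.5% and 70.4%, and those of day 8 75.9% and 67.0%. Every library of days 4 to 8 was above both day 2 libraries, while the libraries of days 4, 6 and 8 overlapped. Over the 8 libraries Pearson's r with day was 0.82 (exact two-sided permutation test over 40320 pairings, p = 0.0111) and Spearman's rho was 0.76 (exact permutation p = 0.0397). With Benjamini-Hochberg adjustment over the 10 tests made on these regions the p for r was 0.0571 in this permutation test, which missed 0.05. The relation rested on day 2: without its libraries r was 0.54 (exact permutation p = 0.311), and without the day 8 libraries it was 0.88 (exact permutation p = 0.0444).

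The share of remaining regions called was also lowest at day 2. Day 2 libraries called 6.45% and 3.26% of the remaining regions, day 4 libraries 12.3% and 7.39%, day 6 libraries 12.8% and 12.9%, and day 8 libraries 14.6% and 9.07%. On the log2 scale the satellite-shared share over the remaining share averaged 3.14 ± 0.39 at day 2, 2.75 ± 0.33 at day 4, 2.45 ± 0.01 at day 6 and then 2.63 ± 0.36 at day 8 (SD, n = 2 each). This ratio had r = -0.61 with day (exact permutation p = 0.107), the opposite sign to the share itself. The difference between the shares, satellite-shared minus remaining, ran the other way and averaged 35.9, 54.6, 57.6 and 59.6 percentage points over the 4 days.

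**Figure D2:**
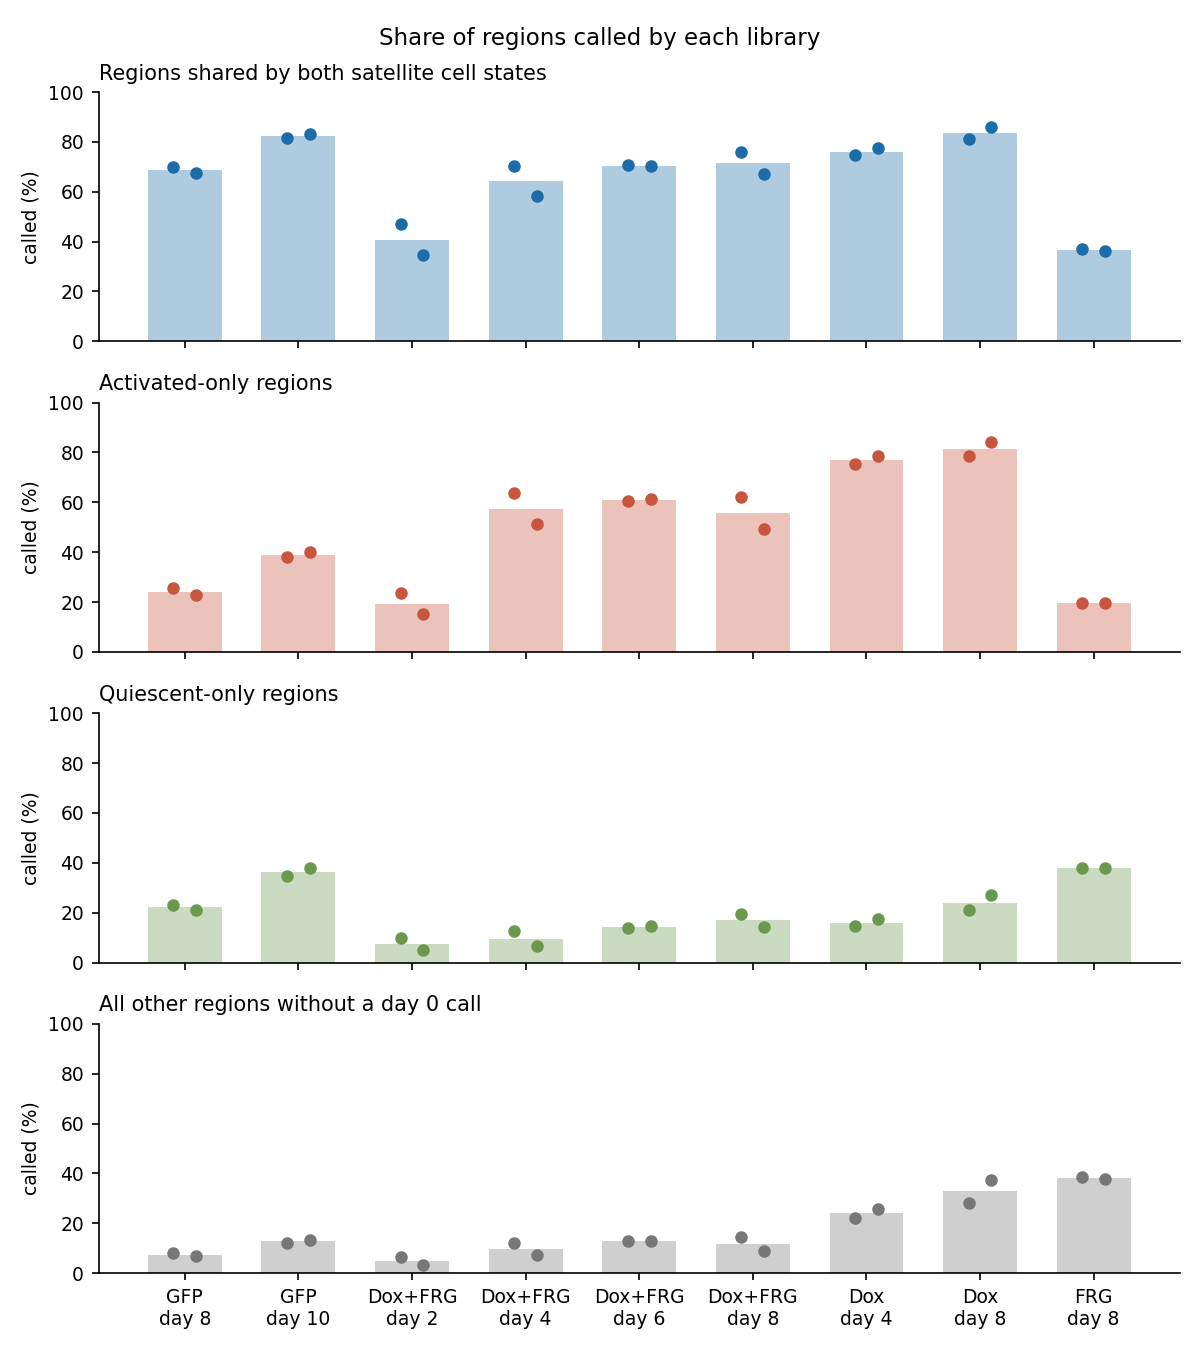
Percent of satellite-shared, activated-only, quiescent-only and remaining regions called, with 1 point a library and bars at the mean of the 2 libraries, for GFP, unsorted Dox+FRG, Dox and FRG groups from left to right. Satellite-shared regions lie at 81.7% and 83.2% in day 10 GFP cells, at 46.9% and 34.6% in Dox+FRG day 2 cells, and at 37.2% and 36.1% in FRG cells, where the remaining regions lie at 38.6% and 38.0%.

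Satellite-shared regions opened mainly in the first 4 days. Both day 2 libraries called 1027 of them, or 31.3%, against 2.98% of all regions without a day 0 call. Open regions numbered 1853 (56.5%) at day 4, 2138 (65.2%) at day 6 and 2149 (65.5%) at day 8, against 7.02%, 10.4% and 8.90% of regions without a day 0 call. Counted by the first day on which a region was open, 31.3% opened by day 2, 28.8% at day 4, 9.63% at day 6, then 4.39% at day 8, and 25.9% (849 regions) were open on no Dox+FRG day. Of the remaining regions, 2.44%, 4.75%, 4.01% and 1.33% were first open on these 4 days, low to high, and 87.5% on none. Activated-only regions had more of their first openings at day 4, with 12.9% by day 2, 37.2% at day 4, 10.6% at day 6, 1.98% at day 8 and 37.4% never. Without day 2 replicate 2, the shorter of the day 2 lists, 606 regions were first open at day 4, against 944 with it, and 1538 were open by day 2, against 1027. Without quiescent satellite cell replicate 2 the rule took in 4896 regions, of which 1537 were first open at day 4 and 1326 were open on no Dox+FRG day.

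Once open, most of these regions were open again later. In all, 859 were open on each of the 4 days and 818 on days 4, 6 and 8 but not day 2, against 1.44% and 3.65% of regions without a day 0 call. Of the regions first open by day 2, 90.2% were open at day 8 and 95.1% in day 10 GFP cells. These 2 shares were not computed for other regions first open by day 2. Only 85 regions (2.59%) were open on an earlier day and called by neither day 8 library, beside 2.01% of regions without a day 0 call, a share near the background. Of these, 26 were also called by neither day 10 GFP library, where the background was 1.58%.

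Early and late regions had different open shares in GFP, Dox and FRG cells. Day 10 GFP cells had open 95.1% of the regions first open by day 2, 89.0% of those first open at day 4, 82.0% at day 6, 91.0% at day 8, and 47.9% of those never open in unsorted Dox+FRG cells. Dox cells at day 8 had open 96.4%, 97.1%, 82.9%, 63.9% and 42.6% of the same 5 classes, and FRG cells 46.5%, 27.6%, 25.0%, 20.1% and 27.6%. Regions that opened by day 2 were the class with the largest open share in FRG cells among these 5, and for regions first open at day 8 the open share was 91.0% in day 10 GFP cells and 63.9% in Dox cells. Calls in these comparison groups took no part in the classes. The same shares were not computed for remaining or activated-only regions of each class, so the differences are not shown to be particular to satellite-shared regions.

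**Figure D3:**
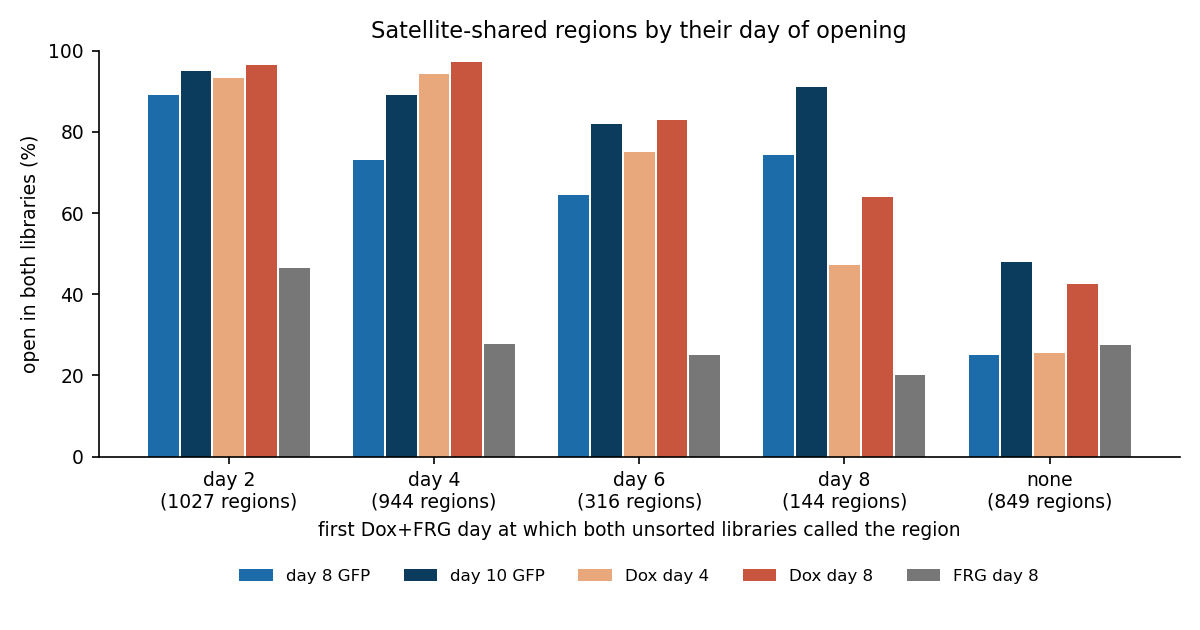
Satellite-shared regions grouped by the first unsorted Dox+FRG day on which both libraries called them, with the number of regions in each class and bars for the percent of the class open in both libraries of day 8 GFP, day 10 GFP, Dox day 4, Dox day 8 and FRG day 8 cells. The class first open by day 2 holds 1027 regions, of which 46.5% were open in FRG cells, and the class first open at day 8 holds 144, of which 91.0% were open in day 10 GFP and 63.9% in day 8 Dox cells.

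GFP cells and unsorted Dox+FRG cells had shares of satellite-shared regions that did not differ past the threshold, from shorter GFP lists at day 8. Day 8 GFP libraries called 69.8% and 67.7% and day 10 GFP libraries 81.7% and 83.2%, against 70.5% and 70.4% in unsorted day 6 and 75.9% and 67.0% in unsorted day 8 libraries. The day 8 GFP values lay within the range of the unsorted ones, and both day 10 values lay above it. Within a day the GFP share was 68.7% ± 1.49 at day 8 and 82.4% ± 1.08 at day 10 (SD, n = 2 each). The test set GFP libraries of days 8 and 10 against unsorted libraries of days 6 and 8. GFP label and day thus cannot be told apart in it. The mean share was 75.6% ± 7.98 in GFP libraries and 71.0% ± 3.69 in unsorted libraries (SD, n = 4 each), a difference of 4.62 percentage points (exact two-sided permutation test over 70 splits, p = 0.343). Leaving out 1 library at a time moved it between 0.88 points (without quiescent satellite cell replicate 2) and 7.26 points (without day 8 GFP replicate 2), and it was 2.59 and 2.07 points without day 10 GFP replicate 1 and replicate 2. With peaks alone that exceed their list's most common width the difference was -1.23 points. The log2 ratio of the satellite-shared to the remaining share was 2.95 ± 0.30 in GFP and 2.54 ± 0.23 in unsorted libraries, a difference of 0.41 (exact permutation p = 0.0857, adjusted p = 0.122). At day 8 alone the GFP libraries were 2.71 points below the unsorted ones on average for satellite-shared regions, and the values overlapped.

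In regions open in a single satellite cell state, the GFP and unsorted libraries of day 8 did not overlap. Day 8 GFP libraries called 25.6% and 22.8% of activated-only regions, against 62.1% and 49.2% in unsorted day 8 libraries. Day 10 GFP libraries called 38.1% and 40.0%. For quiescent-only regions the values were 23.1% and 21.2% in day 8 GFP and 34.7% and 37.8% in day 10 GFP libraries, against 19.6% and 14.2% in unsorted day 8 libraries. The satellite-shared share over the activated-only share averaged 1.29 ± 0.25 in GFP and 0.29 ± 0.11 in unsorted libraries of days 6 and 8 on the log2 scale (SD, n = 4 each), a difference of 1.01. Over the quiescent-only share the averages were 1.41 ± 0.26 in GFP and 2.21 ± 0.18 in unsorted libraries, a difference of -0.80. In both measures the 4 GFP libraries lay apart from the 4 unsorted ones, and each exact permutation p was 0.0286, the smallest that 70 splits can give. After adjustment over the 10 tests both were at 0.0571 in this permutation test and missed 0.05. The GFP libraries were of days 8 and 10 and the unsorted ones of days 6 and 8, so GFP label and day cannot be told apart in either test.

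GFP cells had more satellite-shared regions open at day 10 than at day 8, from longer lists of 61575 and 64947 peaks at day 10, against 47002 and 43467 at day 8. At day 10 2614 (79.7%, background 11.1%) and at day 8 2130 (64.9%, background 6.70%) were open in GFP cells, and 2113 were open on both days (background 6.22%). At day 10 289 were open that neither day 8 GFP library called (8.81%, background 2.86%), and 6 were open at day 8 that neither day 10 GFP library called (0.183%, near the background of 0.139%). The share of remaining regions was also higher at day 10, with 12.0% and 13.4%, against 7.90% and 7.06% at day 8, and the log2 ratio of day 10 minus day 8 differed by -0.50. With 2 libraries against 2 no exact permutation p can go below 0.333.

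At day 8, 121 regions were open in GFP cells and called by neither unsorted library (3.69%, background 1.17%), and 221 were open in unsorted cells and called by neither GFP library (6.74%, background 3.59%). Of activated-only regions 24.3% were of this second kind. Open in both GFP groups and called by none of the 8 unsorted Dox+FRG libraries were 68 satellite-shared regions (2.07%, background 0.652%). The widest of them lay at chr1:145836010-145837705 and was also called by both Dox day 8 and both FRG libraries. The next, at chr10:110374971-110376489, was called by the 4 GFP libraries and no other followed library, as were those at chr1:141242526-141243761 and chr2:49777523-49778740. The region at chr7:52141273-52142634 was called by the 4 GFP and by 3 of the 4 Dox libraries. Of these 5, then, 3 were called in GFP cells alone among the followed libraries.

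Dox cells, given doxycycline without the small molecules, had a larger mean share of satellite-shared regions than Dox+FRG cells on the same days, from longer lists, and the difference missed the threshold. Dox+FRG libraries called 70.4% and 58.4% at day 4 and 75.9% and 67.0% at day 8, against 74.6% and 77.3% at day 4 and 81.2% and 85.8% at day 8 in Dox libraries. Within each day both Dox libraries lay above both Dox+FRG libraries, and over the days together 1 Dox+FRG library of day 8 overlapped the Dox range. The mean was 67.9% ± 7.35 in Dox+FRG and 79.7% ± 4.87 in Dox libraries (SD, n = 4 each), a difference of -11.8 points (exact permutation p = 0.0571, adjusted p = 0.0952). It was -11.6 points within day 4 and -12.0 within day 8.

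Set against the remaining regions the order turned. Dox+FRG libraries called 12.3% and 7.39% of the remaining regions at day 4 and 14.6% and 9.07% at day 8, against 22.3% and 25.6% at day 4 and 28.2% and 37.4% at day 8 in Dox libraries. The log2 ratio of the satellite-shared to the remaining share was 2.69 ± 0.29 in Dox+FRG and 1.51 ± 0.23 in Dox libraries (SD, n = 4 each), a difference of 1.18 (exact permutation p = 0.0286, adjusted p = 0.0571). It was 1.08 within day 4 and 1.27 within day 8, and fell to 0.45 where regions were merged from the satellite cell and day 0 lists alone, which leaves out regions called in no such library. With 43467 peaks drawn from every followed list the difference in share was itself 16.0 points in favour of Dox+FRG cells (exact permutation p = 0.0286, adjusted p = 0.0476). The peaks were drawn at random, which takes a larger part of the calls from the longer Dox lists. The draw therefore cannot tell a difference between the groups from one of list length. Peak width differed too, with a most common width of 78 and 79 bp at day 4 and 82 and 88 bp at day 8 in Dox lists. In Dox+FRG lists it was 178 and 172 bp at day 4 and 180 and 172 bp at day 8. The part that list length or peak width plays in either order was not tested further.

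Against activated-only regions the satellite-shared share was 0.27 ± 0.13 on the log2 scale in Dox+FRG and 0.01 ± 0.03 in Dox libraries (SD, n = 4 each), a difference of 0.26 (exact permutation p = 0.0286, adjusted p = 0.0571). Dox cells thus called the shared and the activated-only regions at nearly the same share, with 81.2% and 85.8% of shared and 78.7% and 84.4% of activated-only regions at day 8. Against quiescent-only regions it was 2.46 ± 0.52 in Dox+FRG and 2.03 ± 0.30 in Dox libraries, a difference of 0.44 whose exact permutation p was 0.2 (adjusted p = 0.25). Leaving out 1 library at a time moved this difference between 0.20 (without Dox+FRG day 4 replicate 2) and 0.68 (without quiescent satellite cell replicate 2). None of the 10 tests passed 0.05 after adjustment, and 5 had a p below it before adjustment.

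Dox cells had open 2371 satellite-shared regions (72.3%) at day 4 and 2623 (80.0%) at day 8, against 19.3% and 25.3% of regions without a day 0 call. At day 8 68 were open in Dox+FRG cells and called by neither Dox library (2.07%, background 0.925%), and 327 were open in Dox cells and called by neither Dox+FRG library (9.97%, background 13.9%). Day 10 GFP cells had open 197 that neither Dox day 8 library called (6.01%, background 3.00%), and Dox day 8 cells had open 241 that neither day 10 GFP library called (7.35%, background 16.6%). Of the 815 regions open in every Dox+FRG and GFP group (24.8%, background 1.15%), 798 were also open in both Dox groups (background 1.08%).

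FRG cells, which carried the MyoD transgene with no doxycycline in their label, called satellite-shared regions at about the share of the remaining regions. FRG libraries called 37.2% and 36.1% of the satellite-shared, 38.6% and 38.0% of the remaining, 38.1% and 37.8% of the quiescent-only and 19.8% and 19.5% of the activated-only regions. Their log2 ratio of satellite-shared to remaining share was -0.06 ± 0.02, against 2.63 ± 0.36 in Dox+FRG day 8 libraries (SD, n = 2 each). FRG peaks took part in the merging that made the remaining regions, so this ratio depends on that merging. Of the remaining regions 21.0% were open in FRG and called by neither Dox day 8 library. The FRG ratio was not computed for regions merged from the satellite cell and day 0 lists alone. Dox+FRG libraries of day 8 exceeded the FRG libraries by 34.8 points in the satellite-shared share (mean 71.4% against 36.6%), with no overlap and an exact permutation p of 0.333, the smallest that 2 against 2 allows. Peaks that exceed the most common width in their list, taken alone, gave the opposite sign, a difference of -4.04 points. FRG lists held 31.6% and 32.1% of such wider peaks, against 9.22% and 7.20% in the Dox+FRG day 8 lists.

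FRG cells had open 1081 satellite-shared regions (33.0%), near the background of 30.0%, though FRG peaks took part in making the background regions. Open in Dox+FRG day 8 cells and called by neither FRG library were 1293 (39.4%, background 6.24%), and open in FRG and called by neither Dox+FRG day 8 library were 232 (7.07%, background 26.2%).

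The 3280 regions were also sorted by their calls in Dox and in FRG cells at day 8, the arms that each lack a part of the treatment. Open in Dox and called by neither FRG library were 1516 (46.2%, background 17.8%), open in both Dox and FRG were 910 (27.7%, against 5.59% of the remaining regions), called by neither arm in any library were 314 (9.57%, against 23.5% of the remaining regions), and open in FRG and called by neither Dox library were 84 (2.56%, background 20.7%). The other 456 were called by 1 of the 2 libraries in at least 1 arm. Activated-only regions were Dox and not FRG in 59.4%, against 17.3% of the remaining regions. Quiescent-only regions were called by neither arm in 47.4%, against 23.5% of the remaining regions. They were FRG and not Dox in 18.9%, below the 21.0% of the remaining regions. Without Dox day 8 replicate 2 the FRG and not Dox class held 159 regions. Without quiescent satellite cell replicate 2 the Dox and not FRG class held 2324.

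The classes differed in when they opened. Dox+FRG day 2 libraries called 69.8% and 54.4% of the regions open in both Dox and FRG and 46.4% and 32.8% of those open in Dox alone. They called 26.2% and 11.9% of those open in FRG alone and 2.87% and 1.27% of those called in neither. Open at day 2 were 49.7%, 30.3%, 9.52% and 0.637% of these 4 classes. Of the remaining regions with the same calls 16.5%, 3.24%, 2.03% and 0.265% were open, in the same order of classes. By day 8 the first pair of classes were alike, at 83.4% and 74.7% of regions open in both arms and 88.4% and 80.3% of regions open in Dox alone. Day 10 GFP libraries called 86.3% and 87.7% of the regions open in both arms and 89.4% and 90.2% of those open in Dox alone. They called 63.1% in each library of those open in FRG alone, and 47.8% and 53.2% of those called in neither. Open in day 10 GFP cells were 84.3%, 88.1%, 58.3% and 44.6% of the 4 classes. Of the remaining regions with the same calls 29.1%, 20.7%, 3.08% and 9.01% were open.

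Of the 314 regions that neither arm called, those open in unsorted Dox+FRG cells numbered 2 at day 2, 5 at day 4, 18 at day 6 and then 50 at day 8, and GFP cells had 140 open at day 10 and 103 at day 8. In unsorted cells these were 0.637%, 1.59%, 5.73% and 15.9% of the class over the same 4 days, beside 0.265%, 0.559%, 2.20% and 2.74% of the remaining regions with the same calls, whose share was thus also largest at day 8. In GFP cells they were 44.6% of the class at day 10 and 32.8% at day 8, beside 9.01% and 5.07% of those remaining regions. The pattern open in day 10 GFP and called by no Dox or FRG library of day 8 had a background of 2.15% against 4.27% of the satellite-shared regions. In no case was a satellite-shared region open in every Dox+FRG and GFP group and called by no Dox and no FRG library (0 regions, background 0.000564%, which is 1 region).

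**Figure D4:**
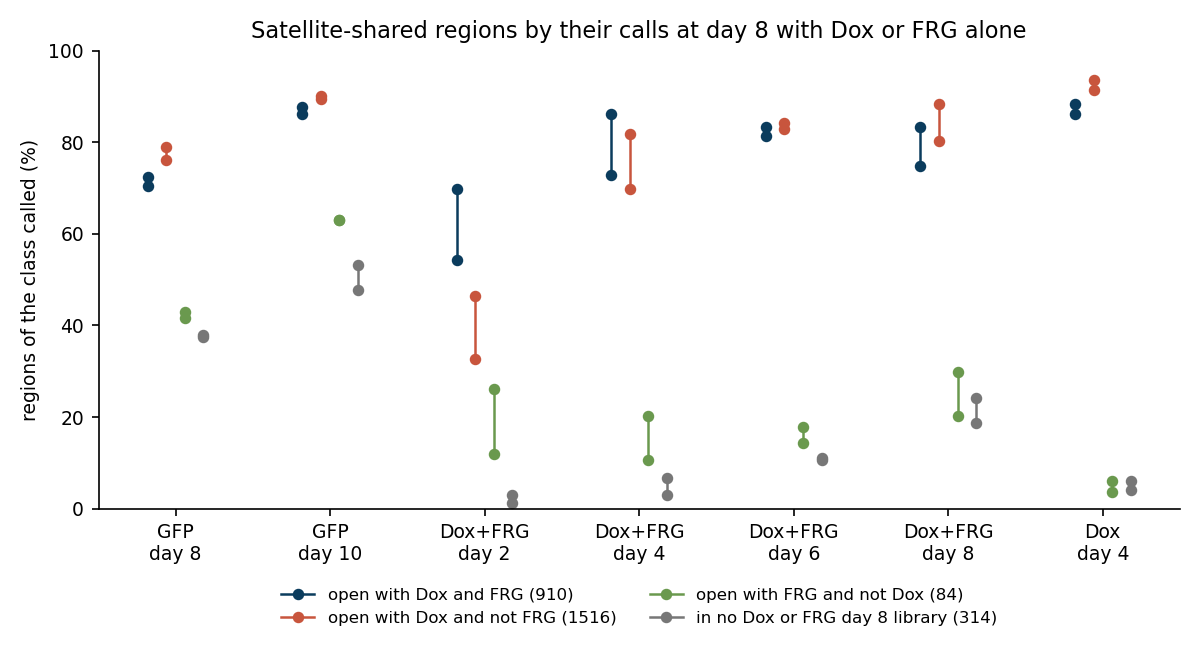
Percent of satellite-shared regions called by each GFP, unsorted Dox+FRG and Dox day 4 library, with a line joining the 2 libraries of a group and regions classed by their calls in Dox and FRG cells at day 8. Regions open in both arms lie highest at day 2, at 69.8% and 54.4%, and regions called in neither arm stay at 2.87% or below at day 2 and reach 47.8% and 53.2% in day 10 GFP libraries.

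The peaks that converted cells placed in satellite-shared regions lay close to those of satellite cells, though only peaks inside the same region were compared. That bounds the distance, and distances in other regions were not computed. Where each library had a single peak in a region, the centres of the 2 quiescent libraries were a median of 44 bp apart, those of the 2 activated libraries 33.5 bp, and quiescent and activated centres 45.5 to 53 bp. Day 10 GFP centres were 33 to 52 bp from quiescent and 35.5 to 47 bp from activated centres, within about the same distance as satellite cells from each other. Dox day 8 centres were 53.75 to 75 bp from quiescent and 49.5 to 59 bp from activated centres, and FRG centres 76.5 to 89 bp from quiescent and 91.75 to 100.5 bp from activated centres. The FRG lists used the narrowest peaks, with a most common width of 61 and 63 bp, and the Dox day 8 lists had 82 and 88 bp. That width was 172 to 190 bp in the GFP and Dox+FRG day 8 lists. The part of peak width in the distances was not tested.

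Satellite-shared regions were wider than other regions once merged, with a median of 425 bp (range 192 to 3944 bp), against 160 bp for the remaining, 291 bp for the activated-only and 276 bp for the quiescent-only regions. A region called in more libraries is built from more peaks, so its width moves with the calls. They lay a median of 10436 bp from the nearest region called in both day 0 libraries, near the 11171 bp of activated-only and 11075 bp of quiescent-only regions. They were spread over all autosomes and the X chromosome, at 1.46% (X) to 2.31% (chromosome 7) of the regions without a day 0 call on a chromosome. The nearest other satellite-shared region was a median of 107275 bp away.

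Some regions nonetheless lay together. Of the 100 kb windows with a satellite-shared region, 2234 held 1, 389 held 2, 69 held 3, 11 held 4, 2 held 5 and 1 held 7. The window with 7 was on chromosome 4 from 139300001 to 139400000, where 16 regions had no day 0 call. Its members differed in their calls over the Dox+FRG days. The region at chr4:139327095-139327401 was called by all 8 unsorted Dox+FRG, all 4 GFP and all 4 Dox libraries and by no FRG library. The region at chr4:139303183-139303528 was called likewise except at day 2, by 6 unsorted Dox+FRG libraries, and was first open at day 4.

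In the same window the FRG libraries called the regions at chr4:139360996-139361656 and chr4:139377392-139377692, both also called by the 4 GFP and the 4 Dox libraries. The first was called by both unsorted Dox+FRG libraries of day 2 and of day 8 and by none of days 4 and 6. The other was first open at day 6. The remaining 3 members were open on no unsorted Dox+FRG day. The one at chr4:139338923-139339200 was called by 2 GFP and 3 Dox libraries, that at chr4:139300787-139301018 by 1 GFP library alone, and that at chr4:139396992-139397284 by 3 Dox libraries and no GFP library. Counted by library, day 10 GFP cells called 6 and 5 of the 7 regions, while 4 and 4 were called in GFP and also in unsorted cells of day 8, 6 and 5 in day 8 Dox cells, and 2 and 2 in FRG cells.

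**Figure D5:**
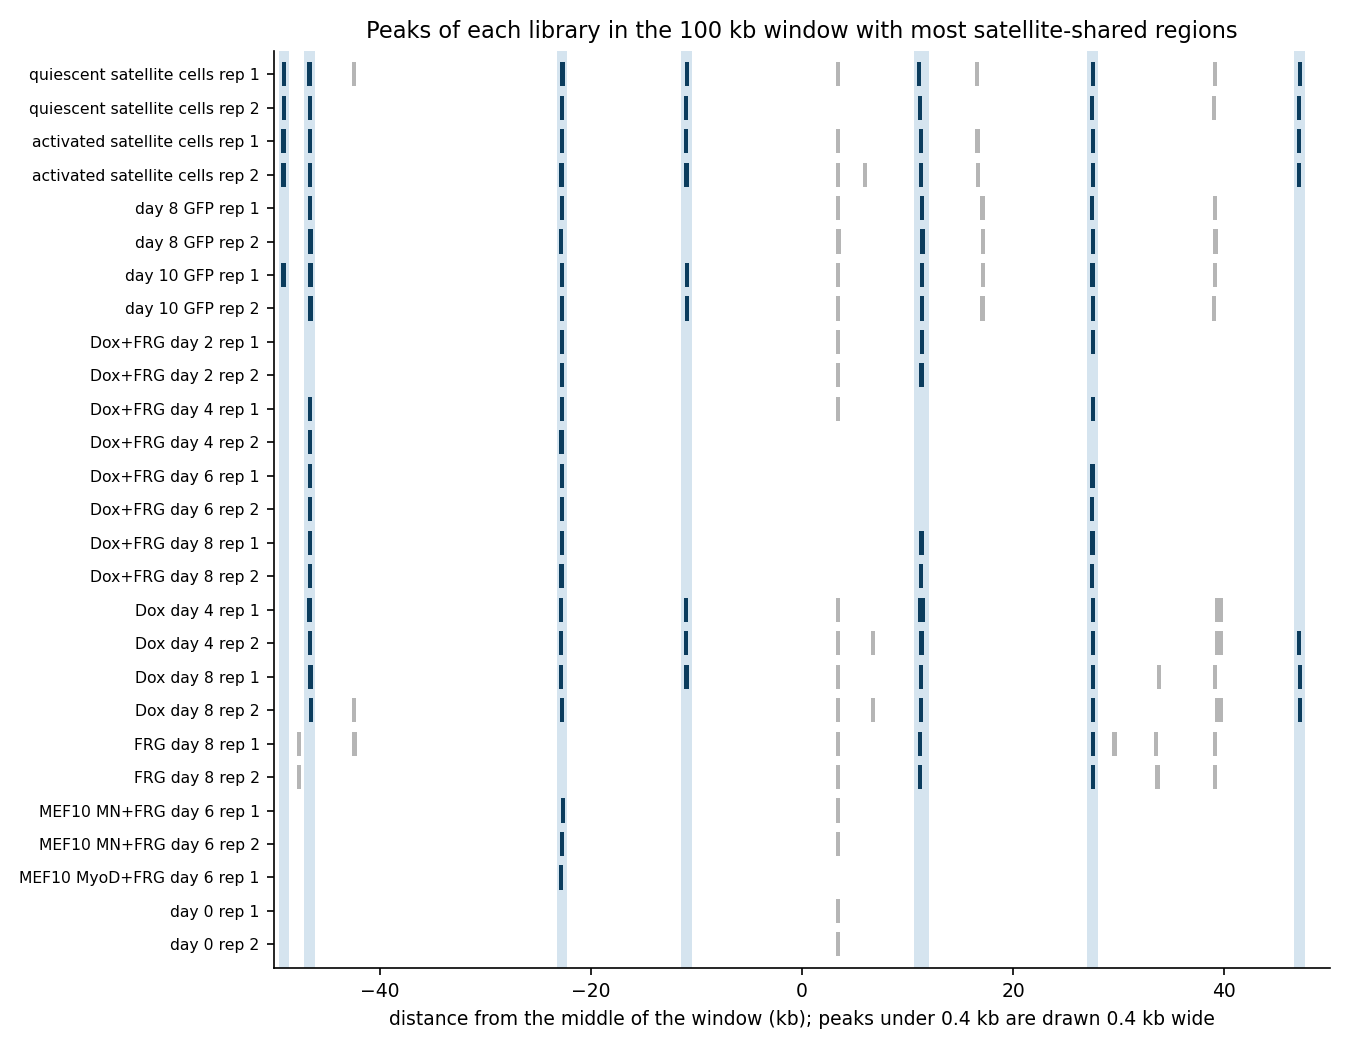
Peaks of each library over the 100 kb window with 7 satellite-shared regions, drawn against distance in kb from the middle of the window, with 1 row a library and shaded bands for the 7 regions. FRG libraries have peaks in 2 of the bands, day 8 Dox libraries in 6 and 5, and day 10 GFP libraries in 6 and 5.

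The window on chromosome 7 from 53500001 to 53600000 held 5 satellite-shared regions of 12 without a day 0 call, and split between GFP and the other groups. All 4 GFP libraries called all 5, unsorted libraries of days 4 to 8 and Dox libraries called 3, and FRG libraries called 0. The regions at chr7:53568911-53569150 and chr7:53592893-53593164 were the difference, each called by the 4 GFP libraries and by no unsorted Dox+FRG, Dox or FRG library. The regions at chr7:53539108-53541080 and chr7:53570125-53572689 were called by all 4 Dox libraries and by 6 and 8 unsorted Dox+FRG libraries, and were wide, at 1973 and 2565 bp.

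The other 3 windows described were 1 with 5 members and, of the 11 windows with 4, the 2 with the fewest regions without a day 0 call. On chromosome 13 from 37700001 to 37800000, 5 of 27 regions were satellite-shared, and all 5 were called by every Dox+FRG library from day 4 on and by every GFP and Dox library, whereas FRG libraries called 2 and 2. On chromosome 4 from 95100001 to 95200000, 4 of 12 regions were satellite-shared. Day 10 GFP and Dox libraries called all 4 there, FRG libraries called 1, and the region at chr4:95143168-95143442 was called by 1 of 8 unsorted Dox+FRG libraries and by all 4 GFP and all 4 Dox libraries. On chromosome 15 from 102900001 to 103000000, 4 of 9 were satellite-shared, and the one at chr15:102919967-102920414 was called by the 4 Dox libraries and by no Dox+FRG, GFP or FRG library.

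Among the 329 regions that all 18 followed libraries called, the widest lay at chr7:143248835-143252778, chr18:35812569-35815773, chr1:155549452-155552415, chr4:122712135-122715071 and chr3:129314612-129317485. The covered length of the first was 1759 and 1942 bp in day 10 GFP and 590 and 496 bp in FRG libraries, whereas that of the second was 913 and 172 bp in day 10 GFP and 3118 and 1243 bp in FRG libraries. Covered length in the fourth was 1858 and 1827 bp in day 10 GFP and 1048 and 935 bp in FRG libraries. In the third it was 368 and 344 bp in day 10 GFP and 1304 and 1229 bp in FRG libraries. In the fifth it was 2733 and 1415 bp in day 10 GFP and 770 and 730 bp in FRG libraries. Covered length thus differed between groups in either direction, and in the second region also between the libraries of a group. The most common peak width was 184 and 172 bp in day 10 GFP and 61 and 63 bp in FRG lists, and its part was not tested. At the other end were the 107 regions called in no library but those of satellite cells. The 5 widest of these were chr14:37511557-37512868, chr15:27425972-27427283, chr17:52335175-52336446, chr7:86507252-86508458 and chr2:49287877-49289032, from 1312 to 1156 bp long. Without activated replicate 1 in the rule this set held 199 regions, and without quiescent replicate 2 it held 179.

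Of the MEF10 lists, 3 were followed. MN+FRG libraries of day 6 called 48.9% and 48.4% of them, 1377 (42.0%, background 14.1%) in both libraries, beside 18.8% and 19.2% of the remaining regions. The MyoD+FRG list of replicate 1 called 40.9% of the satellite-shared, 33.1% of the activated-only, 2.32% of the quiescent-only and 4.16% of the remaining regions, from the shortest list of the series. The MyoD+FRG list of replicate 2, which the rule leaves out, called 76.5% of the satellite-shared regions. With a single MyoD+FRG list followed, no comparison of the 2 MEF10 groups was made.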

How the data were processed

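ATAC-seq peak lists of 28 mouse libraries, 14 groups of 2, were used as deposited. BWA, HOMER and the build mm9 are named per the submitters' processing notes. Their versions, read filters, the transposase shift and the peak threshold are not given in the sources. Each deposited list gives chromosome, start and end of the peaks of 1 library and no score, height or count, so its values are of other kinds than counts or signal and depth per library is unknown. Per the labels' protocols 60000 cells entered a reaction, with 13 PCR cycles and fragments of 100 to 1000 bp. Deposited starts were taken as 0-based, and printed positions are 1-based.

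Peaks overlapping by at least 1 bp in 27 lists were merged. The list of MEF10 MyoD+FRG replicate 2 was left out by the rule. The regions, comparison classes and tests were chosen with earlier results of these data known. Library shares were compared by exact two-sided permutation tests with Benjamini-Hochberg adjustment over 10 tests (Python 3.11.15, NumPy 2.4.6, pandas 2.3.3, SciPy 1.17.1, Matplotlib 3.10.9), tested on simulated data. Each percentage called background is the share of all 177224 regions without a day 0 call. Regions named are the 5 widest members called in every followed library, open in every Dox+FRG and GFP group and in no Dox or FRG library, open in both GFP groups and in no unsorted library, or called in satellite cells alone, and the 5 windows of 100 kb with most members, ties going to the window with the fewest regions without a day 0 call. Members inside those windows are given by their calls. Alternatives were a 50% overlap, all 28 lists, autosomes alone, wider peaks, equal numbers of peaks, each library left out and a replicate block. Genes near regions, motifs and marker genes were not analysed here, since no mm9 annotation or genome was used. The libraries of a group shared at most 29 identical peaks, so none was counted as deposited again.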

Additional observations from a re-analysis of the deposited data

Results flagged for a closer look

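The list of MEF10 MyoD+FRG day 6 replicate 2, which the rule leaves out, called 76.5% of the satellite-shared regions. No comparison uses this list. It was flagged because its share exceeded a floor fixed at 3 of 3280 regions, or 0.0915%. It also called 70.7% of the activated-only, 22.2% of the quiescent-only and 21.9% of the remaining regions. Replicate 1 of the same group called 40.9%, 33.1%, 2.32% and 4.16% of these. The lists differed in length and width, with 91401 peaks and a most common width of 500 bp in replicate 2, against 37301 peaks and 155 bp in replicate 1, and the part of these in the shares was not tested.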

How the results depend on the processing

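Across 22 results and 147 values under other settings than leaving a library out, 117 kept the direction and side of the threshold or count, 5 reversed, 5 now passed the threshold and 20 moved. With peaks alone that exceed their list's most common width, GFP minus unsorted became -1.23 points and Dox+FRG minus FRG -4.04 points. Satellite-shared regions open were then 177 in day 10 GFP, 143 in Dox+FRG day 8, 602 in Dox day 8 and 268 in FRG cells, and 1688 had no call outside satellite cells. With 43467 peaks drawn from each followed list the same counts were 1225, 1199, 363, 110 and 173. Peaks were drawn at random, so longer lists lost a larger part of their calls, and these counts and shares move with list length. In that draw r with day was 0.88 and Dox+FRG minus Dox 16.0 points. The log2 ratios of Dox+FRG minus Dox were 1.14 over remaining and 0.23 over activated-only regions. Those of GFP minus unsorted were 1.00 over activated-only and -0.78 over quiescent-only regions. All of these were past the threshold in the exact permutation test (adjusted p = 0.0476), the log2 ratios with the same unadjusted p of 0.0286 as without the draw. As a log2 ratio over remaining regions, r with day was -0.61 and Dox+FRG minus Dox 1.18. The cause of these changes was not tested. Asking for 1 library of each satellite cell state gave 6990 regions. The overlap, 28-list and autosome settings, and the regions merged from satellite cell and day 0 lists alone, a setting chosen after seeing the data, changed no call.

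Leaving out 1 library at a time gave r from 0.78 to 0.90, Dox+FRG minus Dox from -14.5 to -8.62 points, its log2 ratio from 1.08 to 1.28 over remaining and from 0.20 to 0.38 over activated-only regions, and the GFP minus unsorted log2 ratio from 0.82 to 1.09 over activated-only and from -0.88 to -0.65 over quiescent-only regions. Each of these passed an adjusted p of 0.05 in at least 1 such setting. Without quiescent satellite cell replicate 2, r was 0.80 (exact permutation p = 0.0143, adjusted p = 0.0476). There these log2 ratios kept an exact permutation p of 0.0286, and the share difference of Dox+FRG minus Dox also reached it. That tie lowered the adjusted p of all of them, so a pass there is not by itself a stronger result. Regions with no call outside satellite cells numbered 107 to 199.

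Deviations of same-numbered libraries correlated at -0.01 to 0.11 over 36 pairs of groups, 1 of them over 0.1, so the numbers were not taken to pair the libraries. With a replicate block r was 0.87 (exact permutation p = 0.0104, adjusted p = 0.104), and the block changed no call. Peak lists carry no heights, so weak and absent accessibility cannot be told apart. Without the block, no exact p falls below 0.0286 with 4 libraries against 4.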
